A study of Mus musculus with 6 samples.

Results

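CXCR2 and CXCR4 are the paired chemokine receptors that move neutrophils between marrow, blood and tissue. Signalling through CXCR4 by its ligand CXCL12, made by marrow stroma, holds maturing neutrophils in the marrow. CXCR2, which binds the ELR+ CXC chemokines CXCL1, CXCL2, CXCL3 and CXCL5 in the mouse, draws mature neutrophils out of the marrow and into inflamed tissue and tumors, and is lost from the cell surface after ligand binding. The description below covers 7 genes out of the 32285 listed in each library: the 2 receptor genes Cxcr2 and Cxcr4, and the 5 ligand genes Cxcl1, Cxcl2, Cxcl3, Cxcl5 and Cxcl12. They were chosen by symbol as members of the axis, with earlier results of these data known. All 7 were found in every library, each under 1 gene identifier.

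Droplet-based single-cell transcripts were counted in 6 libraries, 1 for each of 3 tissues and 2 genotype labels, Cysltr1 KO and WT. The tumors borne by all mice were grown from EMT6, a carcinoma line of the mouse mammary gland. The WT mice were BALB/c controls, and the strain and allele of the Cysltr1 KO mice are not given in the sources used here. Its protein, CysLT1, binds cysteinyl leukotrienes, which are inflammatory lipids. Each library was prepared from a pool of 3 mice. Marrow had been enriched magnetically for hematopoietic progenitors, and spleen and tumor for CD45, the pan-leukocyte surface protein, so class sizes reflect those enrichments as well as the tissues. With 1 pool per tissue and genotype no difference between genotypes has a replicate check, no p-value is given, and all intervals are 95% intervals for counting error only.

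The targeted gene went against its label in marrow and spleen. In marrow Cysltr1 stood at 24.5 CPM in the library labelled KO, against 4.76 CPM in the library labelled WT, where CPM give a gene's unique molecular identifiers (UMIs) scaled to 1000000 UMIs of the summed cells. In spleen it stood at 33.0 CPM in the library labelled KO and 7.0 CPM in the library labelled WT, and in tumor at 7.28 and 10.1 CPM in the libraries labelled KO and WT. The allele and the part of the gene that the reads cover are not given in the sources used here. Libraries are therefore named by their labels throughout, and every direction between genotypes rests on those labels. Per library 5036 to 8319 cells were kept, with median depths of 2349 to 12693 UMIs per cell. Marrow was deeper in the library labelled WT (12693 UMIs per cell) than in the library labelled KO (6286). Any pair of libraries shared 43 to 111 cell barcodes.

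Cells of each tissue were clustered without the 7 genes, and a class such as neutrophil or macrophage stands for neutrophil-like or macrophage-like clusters, named from marker genes. Neutrophil clusters were ordered by granule transcripts, which are made in sequence as the cells mature. Stage 1 held azurophil progenitors, rich in Mpo, Elane, Prtn3 and Ctsg. Stage 2 added Camp, Ngp and Ltf, genes of the later specific granules, stage 3 held the specific granule genes alone, and stage 4 had lower levels of them with high Retnlg. Stage 5 neutrophils, found in spleen and tumor, had little of either granule group. Stages 1 to 4 in marrow held 1022, 477, 552 and 802 cells in the library labelled KO, against 1274, 282, 180 and 234 cells in the library labelled WT. Stage 5 held 1086 cells in spleen and 1756 in tumor in the libraries labelled KO, against 2208 and 1450 in the libraries labelled WT. The tumor clusters 1, 3, 8, 11, 12 and 16 had Krt8 transcripts and almost no Ptprc, the gene of CD45. The marker rule named only cluster 11 of them as carcinoma, and the 6 are called keratin-positive clusters here.

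Cxcr2 (ENSMUSG00000026180, mm10 chr1:74153989-74161246, plus strand) rose at each step of the granule ladder and was highest in spleen neutrophils. In marrow stage 1 it stood at 2.91 CPM (1.95 to 4.18) in the library labelled KO and 1.65 CPM (1.15 to 2.29) in the library labelled WT, and in stage 2 at 13.6 and 13.3 CPM. Stage 3 reached 179 CPM (163 to 196) labelled KO and 114 CPM (98.5 to 130) labelled WT. Stage 4 reached 890 CPM (848 to 934) labelled KO and 756 CPM (704 to 811) labelled WT. The step from stage 2 to stage 3 was 13.1-fold (9.93 to 17.7) in the library labelled KO and 8.52-fold (6.30 to 11.7) in the library labelled WT, and the step to stage 4 was a further 4.97-fold and 6.65-fold. None of the counting intervals of neighbouring stages overlapped in either library.

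Spleen neutrophils of stage 5 carried 1495 CPM of Cxcr2 (1450 to 1542) in the library labelled KO and 1392 CPM (1360 to 1425) in the library labelled WT. Both values lay above late marrow neutrophils of stage 4, by 1.68-fold (1.59 to 1.78) labelled KO and 1.84-fold (1.71 to 1.99) labelled WT. Fewer granule-bearing neutrophils were present in the spleen library labelled KO, 130 cells, than in the library labelled WT, 664 cells. In the library labelled WT stages 2, 3 and 4 repeated the ladder of the marrow, with Cxcr2 at 40.2, 155 and 724 CPM. Spleen stage 4 labelled WT therefore lay within counting error of marrow stage 4 labelled WT, at a ratio of 0.959 (0.879 to 1.05). These classes were not matched in granule transcripts, as given below with Cxcr4. After every cell was thinned to 1000 UMIs, Cxcr2 was seen in 73.7% of spleen stage 5 neutrophils labelled KO and 71.7% of those labelled WT, and without thinning in 91.2% and 88.7%. In spleen B cells, which should lack the receptor, it stood at 1.32 and 2.53 CPM in the libraries labelled KO and WT, and in T cells at 0.855 and 2.73 CPM.

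Tumor neutrophils held far less Cxcr2 than spleen neutrophils. Their level was 241 CPM (222 to 262) in the library labelled KO and 241 CPM (218 to 265) in the library labelled WT. The tumor over spleen ratio was 0.161 (0.147 to 0.176) labelled KO and 0.173 (0.156 to 0.191) labelled WT. In thinned cells a Cxcr2 transcript was seen in 17.7% of tumor neutrophils labelled KO and 22.9% labelled WT. That share leaves out 549 and 625 tumor neutrophils under 1000 UMIs in the libraries labelled KO and WT, since tumor neutrophils had median depths of 1276 and 1094 UMIs, against 2332 and 2136 UMIs in spleen. Transcripts of other cells were also present in them. The 9 macrophage markers summed to 1200 and 1400 CPM in tumor neutrophils labelled KO and WT, against 102 and 112 CPM in spleen neutrophils, and the 8 carcinoma markers to 385 and 412 CPM, against 4.78 and 3.10 CPM. The part of this foreign RNA in the lower Cxcr2 level was not tested.

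Outside the neutrophil lineage Cxcr2 was scarce. Neutrophil clusters of all stages held 98.1% and 98.5% of its UMIs in the spleen libraries labelled KO and WT. The shares were 92.5% and 79.8% in marrow, for stages 2 to 4, and 78.2% and 65.7% in tumor. The next highest classes were marrow basophils or mast cells, at 45.5 CPM labelled KO and 26.1 CPM labelled WT, and tumor monocytes, at 46.7 and 53.9 CPM. Across the 3 neutrophil clusters of the tumor, Cxcr2 ranged between 152 and 336 CPM labelled KO and between 145 and 301 CPM labelled WT. Cluster 5, whose Retnlg was highest of the 3, had the highest Cxcr2 in both libraries.

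**Figure D1:**
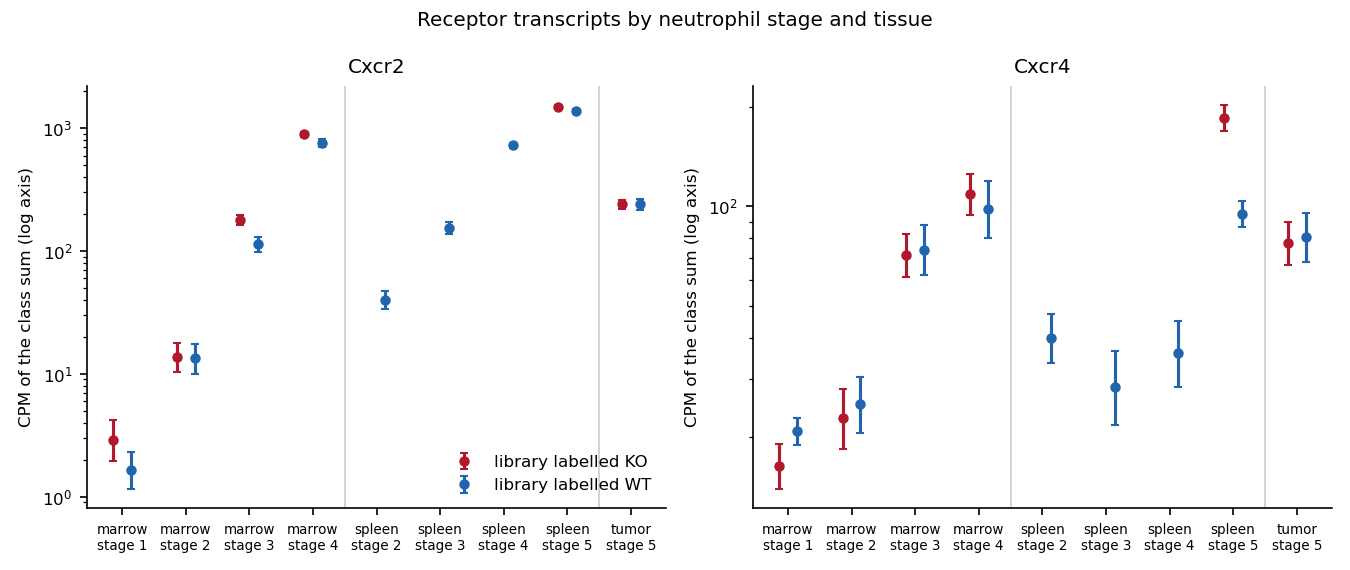
CPM of Cxcr2 (left) and Cxcr4 (right) in the summed cells of each neutrophil stage, on log axes, with 95% counting intervals; red points are libraries labelled KO and blue points libraries labelled WT, and stages with under 50 cells in a library are not drawn. Cxcr2 climbs from 2.91 and 1.65 CPM in marrow stage 1 to 1495 and 1392 CPM in spleen stage 5, with 241 CPM in tumor in both libraries, and Cxcr4 in spleen stage 5 stands at 186 CPM labelled KO and 94.9 CPM labelled WT.

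Cxcr4 (ENSMUSG00000045382, mm10 chr1:128588199-128592293, minus strand) also rose along marrow maturation, over a smaller range. Stage 1 held 16.3 CPM labelled KO and 20.8 CPM labelled WT, and stage 2 held 22.9 and 25.2 CPM. Stage 3 held 71.1 CPM (61 to 82.3) labelled KO and 73.9 CPM (61.8 to 87.6) labelled WT. Stage 4 held 109 CPM (94.4 to 125) labelled KO and 98.6 CPM (80.4 to 120) labelled WT. The largest step, from stage 2 to stage 3, was 3.11-fold (2.41 to 4.03) labelled KO and 2.93-fold (2.25 to 3.83) labelled WT, while the intervals of stages 3 and 4 overlapped labelled WT. Of the 4 marrow stages, stage 4 had the highest level of each receptor gene.

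Late granule neutrophils of the spleen held less Cxcr4 than those of the marrow. Spleen stage 4 in the library labelled WT held 36.0 CPM of Cxcr4, 0.365 of the level of marrow stage 4 (0.268 to 0.495), whereas its Cxcr2 ratio was 0.959. These classes were not matched in granule transcripts. Labelled WT, Camp, Ngp and Ltf summed to 50170 CPM in spleen stage 4 and 16473 CPM in cluster 0, which made up 88.0% of marrow stage 4. Retnlg stood at 23960 and 42962 CPM. The part of this difference in maturation transcripts in the Cxcr4 and Cxcr2 ratios was not tested. Spleen stages 2 and 3 labelled WT held 39.9 and 28.4 CPM of Cxcr4. In the library labelled KO the spleen held 39 stage 4 cells, with a Cxcr4 ratio to marrow of 0.409 (0.245 to 0.649) and a Cxcr2 ratio of 0.661 (0.578 to 0.753). Stage 5 spleen neutrophils held more Cxcr4 than these granule-bearing cells in both libraries, as given below with the comparison of labels.

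Beyond neutrophils Cxcr4 was spread over many leukocyte classes. Marrow monocytes held 129 CPM (121 to 137) labelled KO and 159 CPM (152 to 167) labelled WT. Marrow basophils or mast cells held 117 and 205 CPM, spleen B cells 133 and 120 CPM, and spleen T cells 65.4 and 88.3 CPM in the libraries labelled KO and WT. In the library labelled KO, spleen neutrophils led the order of the 28 classes of at least 100 cells, and B cells, marrow monocytes, basophils or mast cells and marrow stage 4 followed with intervals that each overlapped the next. In the library labelled WT, basophils or mast cells led 31 such classes, and the next, marrow monocytes and tumor monocytes, overlapped each other. Marrow innate lymphoid cells of group 2 held 97.9 CPM labelled KO and 505 CPM labelled WT, from 55 and 54 cells with 7 and 40 UMIs. Tumor keratin-positive clusters held 0.472 and 0.936 CPM, so the gene was close to absent there. In tumor monocytes Cxcr4 stood at 76.8 CPM labelled KO and 131 CPM labelled WT, and in tumor macrophages at 28.9 and 45.2 CPM. Neutrophils held 25.1% of the tumor's Cxcr4 UMIs labelled KO and 14.0% labelled WT, and macrophages, monocytes and clusters 10 and 13 together held 54.1% and 58.3%.

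The same spleen neutrophils could carry transcripts of both receptors. In thinned spleen neutrophils labelled KO, Cxcr4 was seen in 18.5% of the 778 cells with Cxcr2 (15.8 to 21.4) and in 20.1% of the others (15.6 to 25.3). In those labelled WT it was seen in 8.23% of the 1506 cells with Cxcr2 (6.89 to 9.74) and in 12.3% of the others (9.76 to 15.2). In tumor neutrophils the shares were 5.61% and 7.25% labelled KO, and 7.41% and 8.49% labelled WT, for cells with and without a Cxcr2 UMI. Cells with Cxcr2 had the lower share in all 4 of these spleen and tumor sums, and the intervals separated only in the spleen labelled WT, by a narrow gap. In marrow stage 4 the shares were 11.0% and 11.5% labelled KO. Labelled WT they went the other way there, at 12.4% (6.94 to 19.9) and 7.41% (3.25 to 14.1), with overlapping intervals.

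Cxcl1, Cxcl2 and Cxcl3 are neighbouring genes on mouse chromosome 5, together with Cxcl5, and encode chemokines that act through CXCR2. Cxcl1 (ENSMUSG00000029380) lies at mm10 chr5:90891241-90893115, Cxcl2 (ENSMUSG00000058427) at chr5:90903871-90905938, Cxcl3 (ENSMUSG00000029379) at chr5:90786103-90789600 and Cxcl5 (ENSMUSG00000029371) at chr5:90759360-90761624, all on the plus strand. Promoters of such inflammatory chemokines are textbook targets of NF-kB, and GGANNTTCC, where N is any base, is a simplified form of its binding sites. Of the 7 genes 6 matched a promoter in RefSeq (GRCm38.p6, 250 bases before to 50 after the start). The promoters of the ligands that were highest in tumor myeloid cells are shown because 1 match to this pattern has the same 9 letters in all 3, in capitals below. It begins 70 bases before the start in Cxcl1, 96 in Cxcl2 and 72 in Cxcl3.
Cxcl1 promoter, chr5:90890995-90891294, plus strand: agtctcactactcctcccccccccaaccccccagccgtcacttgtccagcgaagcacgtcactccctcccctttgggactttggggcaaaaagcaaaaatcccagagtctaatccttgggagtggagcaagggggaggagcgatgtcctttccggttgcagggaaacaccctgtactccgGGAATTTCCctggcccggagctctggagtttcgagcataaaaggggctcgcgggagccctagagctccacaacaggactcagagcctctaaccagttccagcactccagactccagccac
Cxcl2 promoter, chr5:90903649-90903948, plus strand: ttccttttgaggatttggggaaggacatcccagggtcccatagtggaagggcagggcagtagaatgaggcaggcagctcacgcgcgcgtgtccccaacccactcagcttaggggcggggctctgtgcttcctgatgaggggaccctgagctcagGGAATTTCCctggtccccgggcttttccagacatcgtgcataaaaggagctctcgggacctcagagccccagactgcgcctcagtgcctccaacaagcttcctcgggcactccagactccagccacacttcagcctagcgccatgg
Cxcl3 promoter, chr5:90785851-90786150, plus strand: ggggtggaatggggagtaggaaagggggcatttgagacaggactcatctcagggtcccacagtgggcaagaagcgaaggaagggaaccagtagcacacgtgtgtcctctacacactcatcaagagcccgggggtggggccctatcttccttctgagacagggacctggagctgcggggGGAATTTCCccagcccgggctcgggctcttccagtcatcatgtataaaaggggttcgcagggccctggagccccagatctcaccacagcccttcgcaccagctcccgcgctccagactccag
The shared letters, GGAATTTCC, were picked after these promoters were read. On both strands of all 32851 promoters of this length, they occurred in 104, which is 0.317%. The pattern with the N bases, of which they are a case, occurred in 1399 or 4.26% of promoters, and the capitals mark its only place in each promoter shown. It was not in the promoters of Cxcr2, Cxcr4 or Cxcl12. These are matches of letters only, and no binding was measured.

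Cxcl2 was carried to a large part by neutrophils themselves in spleen and, as given below, in tumor. Neutrophil clusters of all stages held 91.5% and 94.2% of its UMIs in the spleen libraries labelled KO and WT. In marrow, monocytes held 41.6% of its UMIs labelled KO and 58.7% labelled WT. Marrow neutrophils of stages 2 to 4 held 45.3% and 14.95%. Among marrow neutrophil stages Cxcl2 was near absent in stage 1, at 6.82 CPM labelled KO and 8.06 CPM labelled WT. It reached 1027 CPM (981 to 1074) labelled KO and 813 CPM (759 to 869) labelled WT in stage 4. Spleen neutrophils held 18703 CPM labelled KO and 17106 CPM labelled WT, which is 18.2-fold (17.4 to 19.1) and 21-fold (19.7 to 22.6) over marrow stage 4. Tumor neutrophils held 34093 CPM labelled KO and 27208 CPM labelled WT, a further 1.82-fold (1.80 to 1.84) and 1.59-fold (1.57 to 1.61) over spleen. Stage 5 cells of the tumor thus had less Cxcr2 and more Cxcl2 than those of the spleen under both labels.

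Within the neutrophils Cxcl2 was widespread and not carried by a few cells. Thinned to 1000 UMIs, the median spleen neutrophil had 15 Cxcl2 UMIs labelled KO and 13 labelled WT, and the median tumor neutrophil 33 and 28. At least 1 UMI was seen in 98.4% and 98.1% of tumor neutrophils and in 89.0% and 86.9% of spleen neutrophils. The 10% of tumor neutrophils richest in Cxcl2 held 26.1% and 26.3% of the UMIs, against 29.6% and 32.2% in spleen and 56.4% and 56.0% in marrow stage 4, for libraries labelled KO and WT. Among the 3 tumor neutrophil clusters Cxcl2 ranged from 10603 to 44304 CPM labelled KO and from 10395 to 43748 CPM labelled WT, and cluster 7, led by Lcn2, Chil1 and Il1f9, was highest. Cluster 0, with the shallowest cells, was lowest in both libraries.

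Tumor myeloid cells other than neutrophils carried Cxcl2 as well. Macrophages held 5984 CPM labelled KO and 8266 CPM labelled WT. Monocytes held 15828 CPM in 66 cells labelled KO and 12768 CPM in 237 cells labelled WT. Cluster 10, led by Mmp12, Ccl6 and Arg1, held 7551 and 7968 CPM, and cluster 13, led by class II antigen presentation genes, held 11165 and 15448 CPM. Neutrophils made up 29.2% and 18.1% of the tumor cells kept and held 47.8% and 31.1% of the tumor's Cxcl2 UMIs in the libraries labelled KO and WT. Macrophages, monocytes and clusters 10 and 13 together held 40.7% and 55.9%. Tumor T cells, which should lack it, stood at 1064 and 228 CPM and natural killer cells at 348 and 968 CPM, so their order turned between labels. The part of free RNA in the droplets in these levels was not tested. The keratin-positive clusters, at 415 and 258 CPM, lay under the higher of these lymphocyte levels in each library. These cells were several times deeper, and per cell they held 8.42 Cxcl2 UMIs labelled KO and 3.91 labelled WT, against 2.66 and 0.656 in T cells and 0.964 and 4.02 in natural killer cells. How much of the Cxcl2 in keratin-positive cells was free RNA was not tested.

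Cxcl3 followed the myeloid cells of the tumor and was low elsewhere. Tumor neutrophils held 3114 CPM (3043 to 3187) labelled KO and 2472 CPM (2398 to 2547) labelled WT, against 126 and 145 CPM in spleen neutrophils, a tumor over spleen ratio of 24.8 (22.2 to 27.7) and 17.1 (15.8 to 18.5). Cluster 10 held 1976 and 1162 CPM, cluster 13 held 1655 and 1784 CPM, monocytes 1368 and 1184 CPM, and macrophages 439 and 328 CPM. The gene was therefore lower in macrophages than in the other myeloid classes of the tumor in both libraries. Neutrophils held 41.1% of the tumor's Cxcl3 UMIs labelled KO and 37.2% labelled WT. Keratin-positive clusters, at 28.1 and 17.7 CPM, lay within the range of the lymphocytes, where T cells had 148 and 15 CPM and natural killer cells 13 and 42.5 CPM. Per cell they held 0.57 Cxcl3 UMIs labelled KO and 0.268 labelled WT, against 0.369 and 0.043 in T cells and 0.0361 and 0.176 in natural killer cells.

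Cxcl1 was carried by keratin-positive and by myeloid cells of the tumor. Keratin-positive clusters held 1513 CPM (1500 to 1526) labelled KO and 964 CPM (955 to 973) labelled WT and 77.4% and 68.8% of the tumor's Cxcl1 UMIs. They held 70.8% and 75.4% of all UMIs of the tumor libraries, so their share of Cxcl1 lay above that share labelled KO and below it labelled WT. As CPM, monocytes, at 2496 and 1283 CPM, cluster 10, at 1851 and 2522 CPM, and cluster 13, at 1856 and 2810 CPM, were higher still. Tumor neutrophils held 932 CPM labelled KO and 567 CPM labelled WT, against 21.3 and 36.0 CPM in spleen neutrophils, from 58 and 186 UMIs. The tumor over spleen ratio was 43.7 (33.7 to 57.8) labelled KO and 15.7 (13.4 to 18.5) labelled WT. Tumor T cells stood at 269 and 112 CPM and natural killer cells at 206 and 76.5 CPM, below all of these tumor classes. Cluster 19, led by Igfbp3, Col4a1 and Gpihbp1, held 1833 CPM in its 61 cells labelled WT. In marrow Cxcl1 was seen with only 20 UMIs labelled KO and 53 labelled WT.

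Most Cxcl5 UMIs of the tumor lay in the keratin-positive clusters, which held 95% of them labelled KO and 94.5% labelled WT. These clusters held 70.8% and 75.4% of all UMIs of the tumor libraries. The level there was 312 CPM (306 to 318) labelled KO and 129 CPM (125 to 132) labelled WT. Tumor macrophages held 9.29 and 7.9 CPM and tumor neutrophils 79.7 and 40.2 CPM, while T cells held 42.8 and 7.49 CPM and natural killer cells 53.9 and 11.3 CPM. The interval of tumor neutrophils (68.6 to 92 labelled KO) overlapped that of natural killer cells (36.1 to 77.4 labelled KO) and lay above that of T cells (26.8 to 64.8). Labelled WT the neutrophil interval (31.3 to 50.9) lay above those of natural killer cells (3.09 to 29.0) and T cells (0.907 to 27.1). Per cell the neutrophils held 0.105 and 0.0476 Cxcl5 UMIs in the libraries labelled KO and WT, against 0.107 and 0.0215 in T cells and 0.149 and 0.0471 in natural killer cells. In thinned cells a Cxcl5 UMI was seen in 7.21% of neutrophils labelled KO and 3.88% labelled WT. The shares were 5.15% and 1.16% in T cells and 3.91% and 1.27% in natural killer cells. The part of free RNA in neutrophil Cxcl5 was not tested. The unnamed clusters 4, 6 and 9, of low depth, held 110 to 179 CPM labelled KO and 45 to 76.6 CPM labelled WT. Cluster 19 held 110 CPM (82.7 to 144) in its 61 cells labelled WT, from 53 UMIs in 10 of them. That interval held the keratin-positive level labelled WT. Labelled KO cluster 19 had 12 cells and 2 Cxcl5 UMIs. Outside the tumor the source was marrow megakaryocytes, with 20.5 CPM from 30 UMIs labelled KO and 20.2 CPM from 54 UMIs labelled WT. These were nearly all of the 32 and 55 Cxcl5 UMIs of the marrow libraries. Spleen had 1 UMI in each library.

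**Figure D2:**
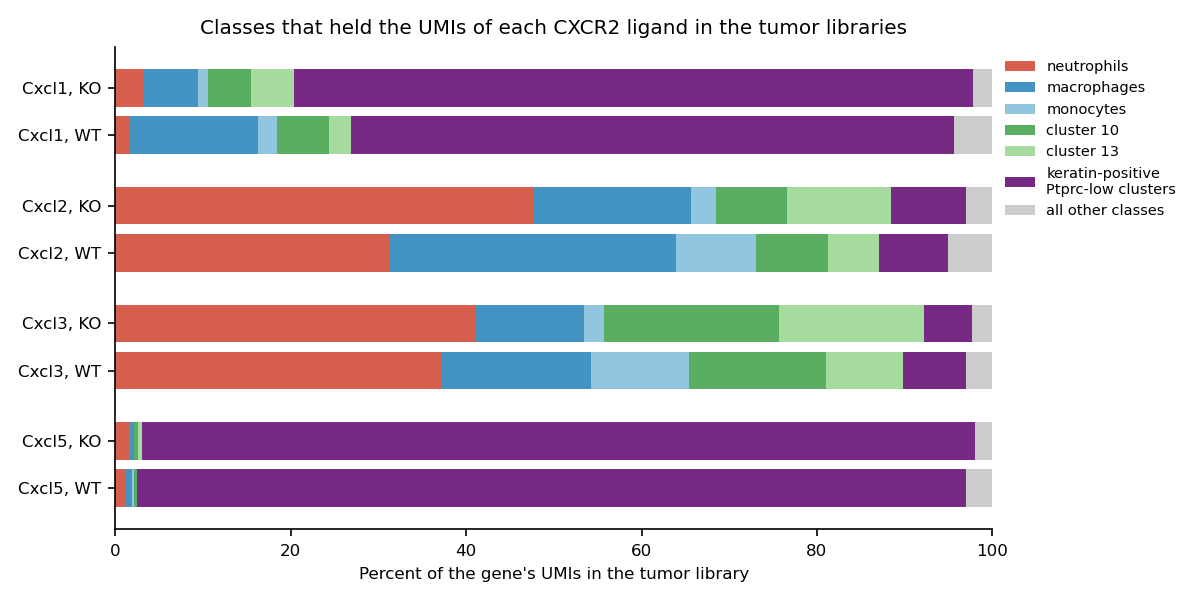
Percent of all UMIs of each CXCR2 ligand gene in the tumor libraries that fell in each class; for each gene the upper bar is the library labelled KO and the lower bar the library labelled WT, and colours are classes. Keratin-positive clusters held 77.4% and 68.8% of Cxcl1 and 95% and 94.5% of Cxcl5, whereas neutrophils held 47.8% and 31.1% of Cxcl2.

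**Figure D3:**
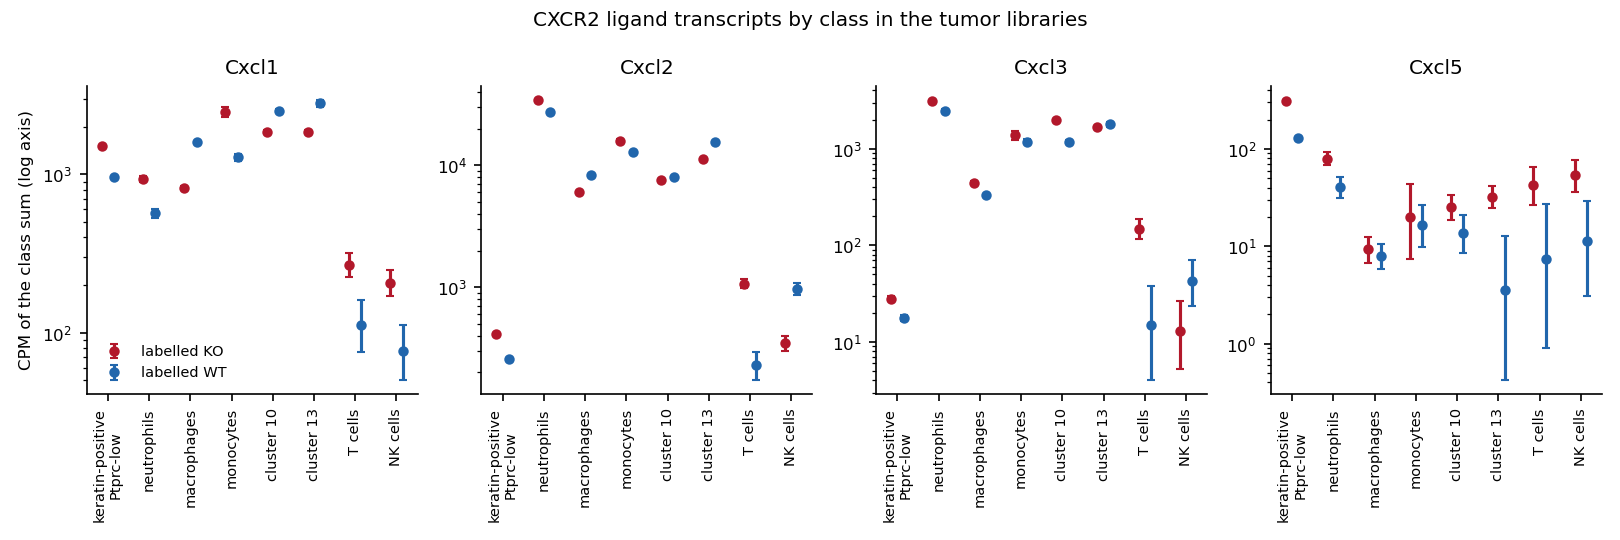
CPM of the CXCR2 ligand genes in summed cells of tumor classes, on log axes that differ between panels, with 95% counting intervals; red is the library labelled KO and blue the library labelled WT. T cells and natural killer (NK) cells, which should lack these genes, stand at 1064 and 228 CPM and at 348 and 968 CPM of Cxcl2, beside 415 and 258 CPM in the keratin-positive clusters.

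Cxcl12 (ENSMUSG00000061353, mm10 chr6:117168535-117181367, plus strand), the ligand of CXCR4, was almost missing from these leukocyte-enriched libraries. In marrow 116 UMIs were found in 7 of 11103 cells over both libraries. Of these UMIs 111, or 95.7%, lay in 3 cells that also held Lepr, the leptin receptor gene that marks marrow stroma known for CXCL12, and only 6 marrow cells held Lepr at all. The 3 cells had 51, 47 and 13 Cxcl12 UMIs, with Igfbp5 and Kitl in each and no Ptprc, and 1 came from the library labelled KO and 2 from the library labelled WT. In tumor 16 UMIs lay in 6 of 14026 cells. Cluster 19, led by Igfbp3 and Col4a1, gave 4 of these cells, each with Col1a1 and Col3a1. Spleen had 1 UMI over both libraries. Cxcl12 of marrow and tumor stroma could therefore not be compared between labels.

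Some genes resembled single members across the 59 sums of class and library with at least 100 cells, among 7871 genes, by Pearson correlation of log2(CPM + 1). These sums share libraries and depth, so the values are a description. Cxcr2 was nearest to Prok2, a prokineticin of myeloid cells, at r = 0.883, and then to Stfa2 and Cstdc6, at 0.878 each. Cxcl2 was nearest to Il1rn, the interleukin-1 receptor antagonist gene, at 0.918, to Hcar2 at 0.915 and to Nlrp3, the inflammasome sensor gene, at 0.908. Cxcl3 was nearest to Nos2, the inducible nitric oxide synthase gene, at 0.929, to Il1rn at 0.923 and to Rsad2 at 0.911. For Cxcl1 the nearest genes were Cstb at 0.941, Pdpn at 0.940 and Timp1 at 0.927, and for Cxcl5 they were Gstm2 at 0.978, Cald1 at 0.972 and Hspb8 at 0.965. Cxcr4 had weaker partners, Nfkbid at 0.764, Cd37 at 0.763 and Coro1a at 0.753. Cxcl12, at no more than 13.8 CPM in any sum, was nearest to Myl10 at 0.624, Vldlr at 0.587 and Dntt at 0.570. Of its marrow UMIs 95.7% lay in 3 cells, so these values follow the classes in which those cells were placed. They do not describe the gene across classes. Between members, Cxcl1 and Cxcl3 stood at 0.883, Cxcl2 and Cxcl3 at 0.834, Cxcl1 and Cxcl5 at 0.804, and Cxcr2 and Cxcr4 at 0.442.

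The comparison between labels asks whether the axis differed in mice labelled Cysltr1 KO. It was made in the 12 classes that held 100 cells or more in each library, for genes with at least 100 UMIs over both and a mean of at least 50 CPM. A gene was counted as higher or lower when the libraries were at least 1.5-fold apart. Of 38 values of members that could be compared, 9 were higher and 6 lower in the library labelled KO, and 23 lay within 1.5-fold. Among all genes compared, the share past 1.5-fold in either direction ran from 1.59% in marrow monocytes to 12.5% in marrow stage 3. Cxcl12 could be compared in none of the 12 classes.

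Spleen neutrophils of stage 5 had more Cxcr4 in the library labelled KO, at 186 CPM (170 to 203), against 94.9 CPM (86.7 to 104) in the library labelled WT, a ratio of 1.96 (1.72 to 2.22). Of 4 members compared there, Cxcr4 was higher and Cxcr2, Cxcl2 and Cxcl3 lay within 1.5-fold, where 7.32% of all genes compared in the class were past it in either direction. In thinned cells Cxcr4 was seen in 18.9% of neutrophils labelled KO and 9.38% of those labelled WT. The direction held within each of the 3 clusters. Cluster 3 held 110 and 52.4 CPM, cluster 4 held 307 and 179 CPM, and cluster 8 held 206 and 112 CPM in the libraries labelled KO and WT, at ratios of 2.10, 1.72 and 1.84. Cluster 4, whose Retnlg was lowest, had the highest Cxcr4 in both libraries. The ratio was 1.82 to 2.10 over all 9 alternative settings.

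Tumor neutrophils showed no such difference in Cxcr4, at 77.5 CPM labelled KO and 81.0 CPM labelled WT, a ratio of 0.957 (0.763 to 1.20). The tumor over spleen ratio of Cxcr4 in stage 5 neutrophils was 0.418 (0.350 to 0.496) labelled KO and 0.853 (0.701 to 1.03) labelled WT. Marrow stage 4 neutrophils held 109 and 98.6 CPM, a ratio of 1.10 (0.867 to 1.42). The difference between tissues in the effect of the label has no test with 1 library each. Cluster makeup and granule transcripts of spleen neutrophils moved with the label as well. Cluster 8 made up 31.1% of them labelled KO and 8.97% labelled WT, and the 10 immature neutrophil markers summed to 1984 and 4659 CPM, with Fcnb at 0 labelled KO. Retnlg, highest in the cluster with the least Cxcr4, moved within the clusters too, at 6431 CPM labelled KO and 18662 CPM labelled WT in cluster 3, 239 and 1137 CPM in cluster 4, and 2317 and 7285 CPM in cluster 8. The libraries therefore differed in maturation transcripts within each cluster as well, and their part in the Cxcr4 difference was not tested.

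**Figure D4:**
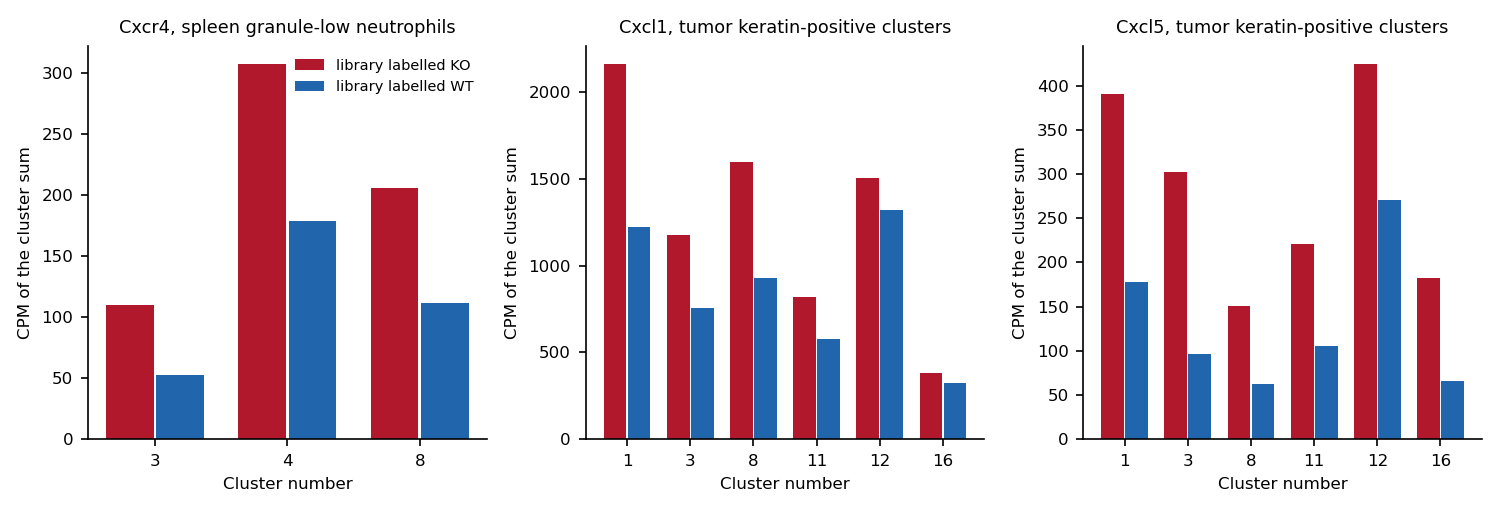
CPM in the summed cells of single clusters, without error bars, for Cxcr4 in spleen neutrophils (left) and for Cxcl1 and Cxcl5 in tumor keratin-positive clusters (middle and right); red bars are the library labelled KO and blue bars the library labelled WT. The red bar is the taller of each pair, by 1.72-fold to 2.10-fold for Cxcr4, 1.14-fold to 1.77-fold for Cxcl1 and 1.57-fold to 3.13-fold for Cxcl5.

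Cxcr2 differed little between labels in mature neutrophils. Its ratio of labelled KO over labelled WT was 1.07 (1.03 to 1.12) in spleen stage 5, 1.0 (0.881 to 1.14) in tumor stage 5 and 1.18 (1.08 to 1.28) in marrow stage 4. In marrow stage 4 all 3 members compared, Cxcr2, Cxcr4 and Cxcl2, lay within 1.5-fold, where 10.6% of all genes were past it. Cxcl2 there stood at a ratio of 1.26 (1.16 to 1.37), which turned to 0.657 when cells were taken by single-cell marker gates. In marrow stage 3, 1 of 3 members was higher, against 12.5% of all genes past 1.5-fold in either direction. That member was Cxcr2, at a ratio of 1.58 (1.33 to 1.87). Cxcl2, at 1.28, fell to 0.451 with single-cell gates and 0.444 at a coarser clustering, and Cxcr4, at 0.962, to 0.656 in thinned cells. Within the clusters of that stage the ratio was 1.08 (0.906 to 1.30) in cluster 5 and 1.0 in cluster 20, and cluster 5, the later one, made up 84.2% of the stage labelled KO and 59.4% labelled WT. With clusters weighted equally the stage ratio fell to 1.07.

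Marrow basophils or mast cells had less of both members compared there. Cxcr4 stood at 117 CPM labelled KO and 205 CPM labelled WT, a ratio of 0.574 (0.488 to 0.673), and was lower in clusters 12, 13 and 23 alike, at 0.532, 0.630 and 0.481. Cxcl2 stood at 129 and 211 CPM, a ratio of 0.612 (0.523 to 0.714), but was 0.834 in thinned cells, 0.700 with doublets kept, 0.677 at a stricter mitochondrial limit, and 1.19 (0.836 to 1.68) in cluster 23. Both members were lower where 2.78% of all genes were past 1.5-fold. Cxcr2, below the level at which genes were compared, went the other way, at 45.5 and 26.1 CPM from 83 and 69 UMIs. Its ratio was 1.75 (1.25 to 2.44), and 1.37 with clusters weighted equally. In marrow monocytes the 2 members compared lay within 1.5-fold, with 1.59% of genes past it. Cxcr4 had a ratio of 0.809 (0.749 to 0.873) and Cxcl2 of 0.698 (0.661 to 0.737) there.

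Spleen monocytes, 131 cells labelled KO and 103 labelled WT, had less Cxcl1 and Cxcl2. Of 3 members compared 2 were lower, against 11.6% of genes past 1.5-fold in either direction. The other, Cxcr4, at 0.984, was 1.58 in thinned cells and 0.642 with single-cell gates. Cxcl1 stood at 46.0 CPM labelled KO and 88.5 CPM labelled WT, from 52 and 77 UMIs in only 7 and 8 cells. The shares of cells with a Cxcl1 UMI, 5.34% (2.18 to 10.7) and 7.77% (3.41 to 14.7), had overlapping intervals. Cxcl2 stood at 2499 and 3989 CPM, a ratio of 0.627 (0.596 to 0.659) that became 0.801 with single-cell gates and 0.668 with doublets kept. In spleen macrophages the only member compared, Cxcl2, was higher, at 827 CPM labelled KO and 495 CPM labelled WT, where 11.0% of genes were past 1.5-fold. Its ratio of 1.67 (1.42 to 1.97) turned below 1 in thinned cells, at 0.707, with doublets kept, at 0.649, and with equal weight per cell, at 0.875, and was 1.30 at a stricter mitochondrial limit.

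Tumor neutrophils had a higher Cxcl1 level in the library labelled KO. Of 6 members compared, Cxcl1 and Cxcl5 were higher, the second at the low level given above. Cxcr2, Cxcr4, Cxcl2 and Cxcl3 lay within 1.5-fold, where 10.6% of all genes were past it in either direction. The median log2 ratio of all genes compared in this class was -0.11, so the members' ratios stand slightly higher against it. Cxcl1 stood at 932 CPM (893 to 972) labelled KO and 567 CPM (532 to 604) labelled WT, a ratio of 1.64 (1.52 to 1.77). Within clusters 0, 5 and 7 the ratio was 1.43, 1.28 and 1.39, all under 1.5-fold, and cluster 7, with the highest Cxcl1, made up 37.6% of the class labelled KO and 16.6% labelled WT. It was 1.37 with clusters weighted equally and 1.05 with single-cell gates. Tumor T cells and natural killer cells, at 269 and 206 CPM labelled KO against 112 and 76.5 CPM labelled WT, moved the same way, and the part of free RNA was not tested. Cxcl5 stood at 79.7 and 40.2 CPM, a ratio of 1.98 (1.5 to 2.65). Its level in tumor T cells and natural killer cells was also higher labelled KO, and the part of free RNA in this ratio was not tested.

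Cxcl2 in tumor neutrophils, at 34093 CPM labelled KO and 27208 CPM labelled WT, had a ratio of 1.25 (1.24 to 1.27). Within clusters 0, 5 and 7 it was 1.02, 1.11 and 1.01, with the shares of the 3 clusters differing between libraries as above. Cxcl3 had a ratio of 1.26 (1.21 to 1.31), and 1.19, 1.34 and 1.10 within those clusters.

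Tumor macrophages had less Cxcl1 in the library labelled KO, at 819 CPM (794 to 845), against 1591 CPM (1559 to 1623) in the library labelled WT, a ratio of 0.515 (0.496 to 0.534). Of 3 members compared 1 was lower and 2 lay within 1.5-fold, with 2.75% of all genes past it. The ratio became 0.854 when macrophages were taken by single-cell gates in place of clusters. Cxcl2 had a ratio of 0.724 (0.714 to 0.734) and Cxcl3 of 1.34 (1.26 to 1.42), so the 3 ligands did not move together. Cxcl3 was past 1.5-fold with doublets kept, at 1.60, and with single-cell gates, at 1.83. In cluster 10, 1 of 4 members was higher, with 6.10% of genes past 1.5-fold. That member was Cxcl3, at 1976 and 1162 CPM and a ratio of 1.70 (1.61 to 1.80), while Cxcl1 had 0.734, Cxcl2 0.948 and Cxcr4 0.736, which was 0.469 in thinned cells. In cluster 13, 1 of 4 members was lower, with 7.10% of genes past 1.5-fold. That member was Cxcl1, at 1856 and 2810 CPM and a ratio of 0.660 (0.622 to 0.702), which was 0.826 in thinned cells, 0.786 with equal weight per cell and 0.668 with median ratio scaling. Cxcr4 there, at 1.14 from 103 and 29 UMIs, was 6.45 in thinned cells.

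Keratin-positive clusters had more Cxcl1 and Cxcl5 in the library labelled KO. All 3 members compared there were higher, Cxcl1, Cxcl2 and Cxcl5, where 1.62% of all genes were past 1.5-fold. Cxcl5 stood at 312 CPM labelled KO and 129 CPM labelled WT, a ratio of 2.42 (2.35 to 2.5), and was 1.57 to 3.13 within the 6 clusters. In thinned cells a Cxcl5 UMI was seen in 19.8% of cells labelled KO and 8.74% labelled WT. Cxcl1 stood at 1513 and 964 CPM, a ratio of 1.57 (1.55 to 1.59), was 1.14 to 1.77 within the clusters, and ended just inside 1.5-fold, at 1.49, when they were weighted equally. Cxcl2 had a ratio of 1.61 (1.57 to 1.65), but it was below 1 in clusters 12 and 16, at 0.871 and 0.907. It was also inside 1.5-fold at 1.20 with doublets kept, 1.36 in thinned cells, 1.47 with equal weight per cell and 1.48 with clusters weighted equally. These cells, present despite the CD45 enrichment, numbered 1672 labelled KO and 3033 labelled WT, with median depths of 20666.5 and 14766 UMIs.

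**Figure D5:**
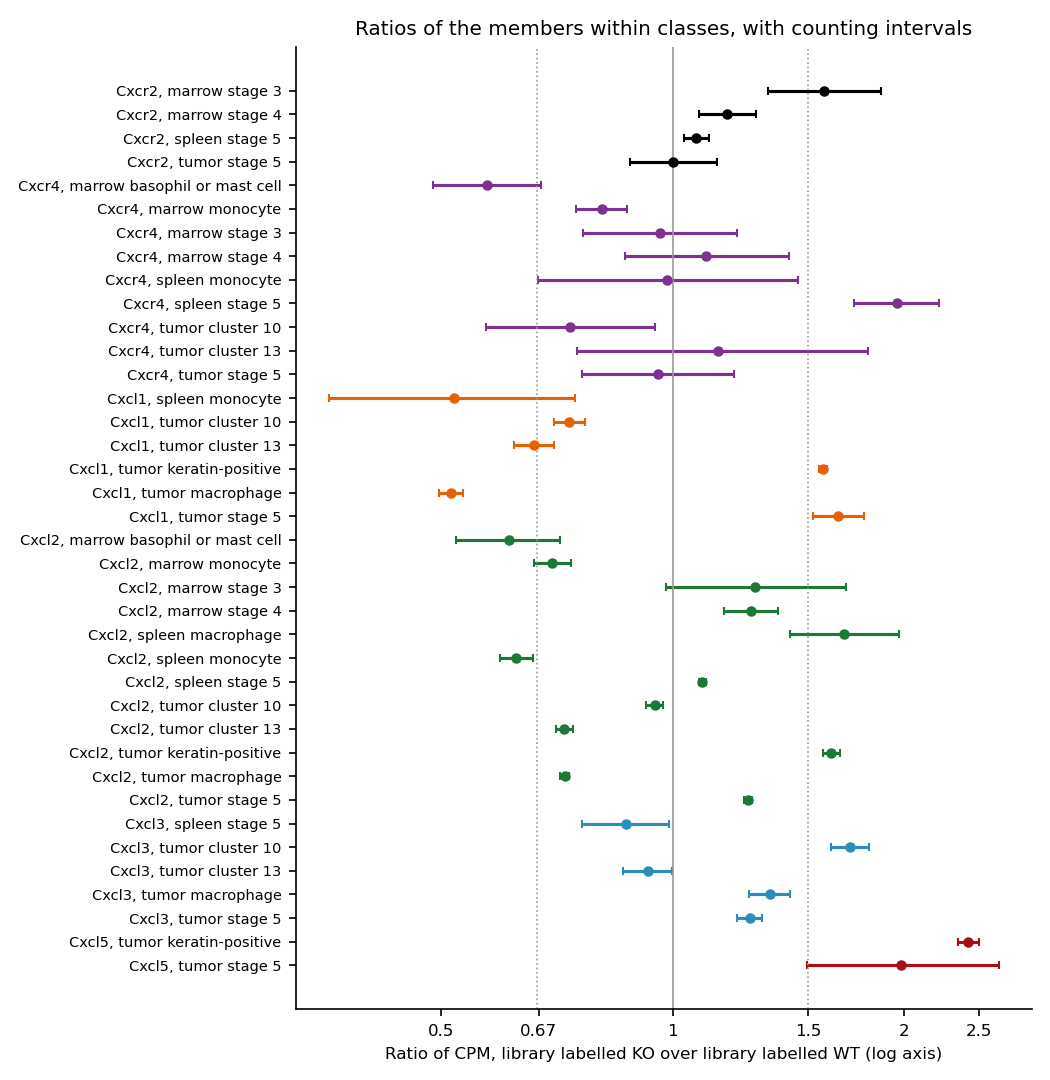
Ratio of CPM in the library labelled KO over the library labelled WT for every member that could be compared in the 12 classes, on a log axis, with 95% counting intervals; colours mark genes, the solid line is 1 and dotted lines mark 1.5-fold in either direction. Cxcl5 in keratin-positive clusters at 2.42 and Cxcr4 in spleen stage 5 at 1.96 lie farthest to the right apart from Cxcl5 in tumor stage 5 at 1.98, and Cxcl1 in tumor macrophages lies at 0.515.

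Other genes of the axis, a list of 42 that holds upstream cytokines, receptor signalling genes, proteases that cut CXCL12 and adhesion molecules, went in both directions. The list was chosen with earlier results of these data known. Its shares past 1.5-fold, here and in the next paragraph, are therefore a description and not independent support for a difference in the axis. In spleen neutrophils 28 were compared, 2 were higher and 1 lower, which is 10.7% against 7.32% of all genes, with a median log2 ratio of 0.02, against 0.07 over all genes compared. Il1b, the interleukin-1 beta gene, stood at 13250.5 CPM labelled KO and 8504 CPM labelled WT, a ratio of 1.56, and Tnf at 75.7 and 48.2 CPM. Mmp8, the neutrophil collagenase gene of the specific granules, stood at 254 and 782 CPM, a ratio of 0.325. In tumor neutrophils 22 were compared, 4 were higher and 2 lower, which is 27.3% against 10.6% of all genes, with a median of -0.02, against -0.11. Cd74, which encodes the invariant chain and a receptor for the chemokine-like MIF, stood at 424 CPM labelled KO and 123 CPM labelled WT, and Csf3, the gene of the neutrophil growth factor G-CSF, at 85.7 and 34.4 CPM. Zfp36, whose protein destabilises inflammatory mRNAs, had a ratio of 1.76 there, and Mmp8 of 0.333.

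Past 1.5-fold were also 3 of 19 in tumor macrophages, 15.8% against 2.75% of all genes, 4 of 22 in cluster 10, 18.2% against 6.10%, 4 of 21 in cluster 13, 19% against 7.10%, and 5 of 18 in spleen macrophages, 27.8% against 11.0%. In marrow stage 3 it was 5 of 22, 22.7% against 12.5%, and in spleen monocytes 6 of 27, 22.2% against 11.6%. Among the remaining classes Cd74 was also higher labelled KO in tumor macrophages, at 1832 and 852 CPM, in cluster 10, at 2811 and 675 CPM, in keratin-positive clusters, at 265 and 139.5 CPM, and in marrow monocytes, at 501 and 152 CPM. Cluster 13, led by class II antigen presentation genes, made up 4.98% of the tumor cells labelled KO and 1.56% labelled WT. The part of free RNA in the Cd74 levels, here and in tumor neutrophils, was not tested. Tnf was lower in tumor macrophages, at 140 CPM labelled KO and 391 CPM labelled WT, and in cluster 13, at 196 and 396 CPM. In marrow stage 4, 26 of the list were compared, 1 was higher and 2 lower, 11.5% against 10.6% of all genes, and Il1b stood at 594 and 215 CPM, while Nfkbia, the NF-kB inhibitor gene, stood at 223 and 422 CPM. In the keratin-positive clusters 10 were compared and Cd74 alone was past 1.5-fold. In no class were more than 4 of the list higher or more than 3 lower.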

How the data were processed

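Whole-number UMI counts per gene and barcode were deposited by the authors as filtered matrices, with Cell Ranger 6.1.0 given per the file headers, whereas version 6.0.0, with mm10, is in the submitters' processing notes. Kits for 5' and for 3' ends both appear in the labels' protocols, which leaves unsettled the transcript end that was read. Libraries held 40377940 to 75873784 UMIs. Barcodes with at least 500 UMIs, 300 genes and at most 10% mitochondrial UMIs were kept, and doublets scored against simulated ones were removed at 0.8% per 1000 barcodes. Both libraries of a tissue were clustered together (2000 variable genes without the members, 30 components, 15 neighbours, Leiden resolution 1, leidenalg 0.10.2) and clusters named from markers.

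Levels are CPM of summed cells with exact Poisson intervals. Shares of cells have exact Clopper-Pearson intervals, and ratios exact conditional binomial ones. A ratio past 1.5-fold was counted after adding a pseudocount of 1 CPM. Calculations were tested on simulated data. Results under 9 other settings, and 1 more chosen after the data were seen (clusters weighted equally), are given at the end. The members and gene lists were chosen with earlier results of these data known, and the stage limits, naming thresholds and choice of 12 classes after the data were seen. Other axis genes named were at most 4 a class past 1.5-fold by size of ratio. No test was possible with 1 library per group. Antibody features, with 1 to 3 counts in 3 libraries, were left out.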

Additional observations from a re-analysis of the deposited data

Results flagged for a closer look

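Cxcl1 in stage 5 neutrophils differed between labels in opposite directions in spleen and tumor. In spleen neutrophils the ratio of the library labelled KO over the library labelled WT was 0.592, from 58 and 186 UMIs at 21.3 and 36.0 CPM, below the level at which genes were compared. Those UMIs lay in 26 and 70 cells, 2.39% (1.57 to 3.49) and 3.17% (2.48 to 3.99) of the class, with overlapping intervals. The spleen ratio was 0.687 with single-cell gates and 0.683 at resolution 0.5. In tumor neutrophils the ratio was 1.64, at 932 and 567 CPM, but 1.05 with single-cell gates. The difference between the tissues was not tested, as each has 1 library per label. In spleen, cluster 4 held 32 and 139 of those UMIs, with a ratio of 0.563 (0.371 to 0.831). In tumor the ratio was 1.43, 1.28 and 1.39 within single clusters, and tumor T cells moved the same way, at 269 CPM labelled KO and 112 CPM labelled WT.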

How the results depend on the processing

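No paired analysis was possible because there was 1 library per tissue and label. Of 351 ratios under alternative settings, 262 moved by less than their counting interval, 86 moved beyond it and 3 that were past 1.5-fold turned direction, all for the Cxcl2 ratio of spleen macrophages, at 0.707 thinned, 0.649 with doublets kept and 0.875 with equal weight per cell. Cxcr4 in spleen neutrophils kept its direction and stayed past 1.5-fold under all 9 settings (1.82 to 2.10). Cxcl2 in marrow stage 4 was 1.40 thinned, 1.16 in cells of at least 1000 UMIs, 0.657 by single-cell gates, 1.42 at resolution 0.5 and 1.55 with equal weight per cell. In spleen neutrophils Cxcl2 was 1.03 thinned, 1.17 gated, 1.22 at resolution 0.5, 1.04 with median ratio scaling, 1.01 with equal weight per cell and 1.05 with clusters weighted equally, and Cxcr2 was 1.02 with median ratio scaling. In tumor neutrophils Cxcr2 was 0.811 thinned and 1.30 gated, and Cxcl2 was 1.14 thinned, 1.24 with doublets kept, 1.17 in cells of at least 1000 UMIs, 1.33 gated, 1.35 with median ratio scaling and 1.05 with clusters weighted equally. In keratin-positive clusters Cxcl5 was 2.51 with doublets kept and 2.14 with clusters weighted equally, and Cxcl1 was 1.60 with median ratio scaling and 1.49 with clusters weighted equally. Of the 23 members within 1.5-fold, 10 went past it under some setting (15 values in all). The cause of these moves was not tested.

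Counts of genes past 1.5-fold also depended on settings, most often on the limit on low counts, which moved all 12. Cells of at least 1000 UMIs and the stricter mitochondrial limit moved none of the 12. Without the limit on low counts they were 3870, 5413, 822 and 3254 in marrow stage 3, stage 4, monocytes and basophils or mast cells (215, 196, 48 and 75 with it), 2590, 5394 and 6027 in spleen neutrophils, monocytes and macrophages (163, 367 and 209), and 4388, 1842, 4825, 5983 and 455 in tumor neutrophils, macrophages, clusters 10 and 13 and keratin-positive clusters (266, 77, 158, 196 and 48). Thinned, they were 141 in marrow stage 3, 166 in marrow monocytes, 36 in spleen monocytes, 42 in spleen macrophages, 51 and 52 in clusters 10 and 13, and 142 in keratin-positive clusters. Single-cell gates gave 87 in marrow stage 3, 310 in stage 4, 124 in marrow monocytes and 193 in spleen monocytes. Resolution 0.5 gave 117 in stage 4. Equal weight per cell gave 77 in marrow monocytes, 123 in basophils or mast cells, 329 in spleen macrophages, 263 in cluster 10 and 102 in keratin-positive clusters. Clusters weighted equally gave 42 in marrow stage 3 and 28 in keratin-positive clusters. Gates and resolution 0.5 could not be run for clusters 10 and 13. Thinning left out 549 tumor neutrophils labelled KO and 625 labelled WT, which limits their shares of cells.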
